A study of Mus musculus with 21 samples.

Results

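The data described here are the protein binding microarrays of the mutant CREB1(A297V) whose synthesised DNA strand carried 5-hydroxymethylcytosine (5hmC, 4 arrays), set against those on which it carried ordinary cytosine (C, 2 arrays). They are 6 of the 21 arrays of a series on bZIP DNA-binding domains and modified cytosine. The arrays were picked by their labels, with earlier results of these data known. All 65126 sequences of 8 bases (8-mers) carried by a probe were compared. CREB1(A297V) is the DNA-binding domain of the transcription factor CREB1, cloned from mouse per the organism label, with the amino acid change its name gives. It was made by site-directed mutagenesis, carried an N-terminal GST tag, and was produced by in vitro transcription and translation, so no cells and no other nuclear proteins were present. Another 2 arrays of CREB1(A297V) on 5-methylcytosine (5mC) entered the estimate of spread and some descriptions. The comparison between proteins came from 4 arrays of wild-type CREB1 (2 on C, 2 on 5hmC). Whether replicates used separately made protein is not stated in the labels. The p-values therefore measure the spread between these arrays, which may be technical.

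A bZIP factor binds DNA as a dimer. Each of its long helices lies in the major groove and reads a core of 4 bases, and the cores of the 2 partners face each other on opposite strands. CREB1 is known for the cAMP response element (CRE), in which both cores read GTCA. PAR-type bZIP factors read GTAA, and C/EBP factors read GCAA. 5hmC is made in cells by oxidation of 5mC by TET enzymes, and its hydroxymethyl group points into the same major groove. On these arrays the modified base was on the strand made by primer extension alone, and the template strand kept plain cytosine.

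The strand therefore decides what a site carries. An 8-mer and its reverse complement are the same double-stranded site, turned around, with 5hmC on opposite strands. The 8-mers below are those the results turn on, written 5′ to 3′ on the synthesised strand. Capitals mark each cytosine that was replaced by 5hmC. The first 4 are the palindromes and hybrids of the CRE and PAR cores, and each later line is followed by its reverse complement.
PAR palindrome TTACGTAA: ttaCgtaa
CRE palindrome TGACGTCA: tgaCgtCa
CRE/PAR hybrid TTACGTCA: ttaCgtCa
its reverse complement TGACGTAA: tgaCgtaa
TTACATAA: ttaCataa
its reverse complement TTATGTAA: ttatgtaa
TTACCTAA: ttaCCtaa
its reverse complement TTAGGTAA: ttaggtaa
TTACACAT: ttaCaCat
its reverse complement ATGTGTAA: atgtgtaa
TGACATCA: tgaCatCa
its reverse complement TGATGTCA: tgatgtCa

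In these letters a GTCA core puts a 5hmC inside the core that is read on the synthesised strand, and a GTAA core puts none there. The reverse complements TGAC and TTAC mean that the core is read on the template strand, and their cytosine lies opposite the guanine with which that core begins. This reading takes the strand printed on the slide as the one copied by the polymerase, which was not tested; otherwise each list trades places with its reverse complements. Most 8-mers sat in several longer probes with 35 variable bases, whose other cytosines were modified too. In 286 cases the 8-mer was in 1 probe only. Examples are the probe of middle rank on the C arrays for 3 of the sites, with the 8-mer in capitals.
probe with TTACGTCA: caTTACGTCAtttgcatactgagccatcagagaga
probe with TTACCTAA: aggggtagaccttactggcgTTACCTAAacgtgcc
probe with TTAGGTAA: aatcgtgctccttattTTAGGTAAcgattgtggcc
The probe with TTACGTCA gave 4.19 and 5.30 times its array's median intensity on the C arrays, and 1.13, 1.12, 1.52 and 1.12 times on the 5hmC arrays. The probe with TTACCTAA went from 3.14 and 4.34 times the median to between 0.974 and 1.61 times. The probe with TTAGGTAA, which holds the same site the other way round, was at 2.33 and 2.80 times on C and at 3.93, 3.26, 1.78 and 1.93 times on 5hmC.

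The measurement was a Z-score per 8-mer and array, deposited by the authors, with a median between -0.000915 and 0 on each array; it ranks 8-mers within an array and is no affinity. The highest Z-score was 62.8 and 47.5 on the C arrays and 15.7, 25.4, 25.6 and 31.1 on the 5hmC arrays. Median spot intensity was 1470.5 and 1857 on C, and 1399, 1673, 76 and 288 on 5hmC replicates 1 to 4, with between 0.0372% and 56.0% of spots dimmer than their local background on 5hmC. Both C arrays and 5hmC replicates 1 and 2 carry the number 470 in their file labels, and 5hmC replicates 3 and 4 each another number; what it stands for is not given in the sources used here. 5hmC replicate 1 stood apart from the others. Over all 8-mers it correlated with the C arrays at r = 0.658 and 0.552, and with the other 5hmC arrays at 0.484, 0.392 and 0.335, whereas those 3 correlated with each other at 0.521 to 0.612 and with the C arrays at 0.396 to 0.536. These correlations are across 8-mers, which share probes, and are given as a description. Counts below are therefore also given without it.

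**Figure D1:**
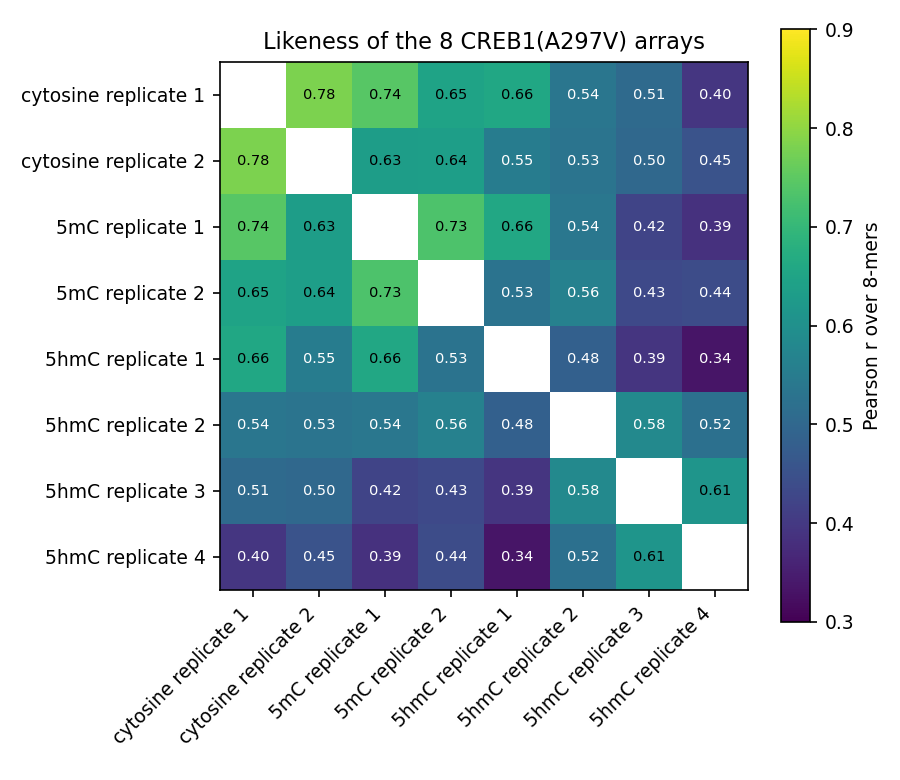
Pearson correlation across 65126 8-mers of the deposited Z-scores, for each pair of the 8 CREB1(A297V) arrays (colour, no unit; diagonal left blank). The C arrays share 0.78, while 5hmC replicate 1 has 0.66 with C replicate 1 and 0.34 with 5hmC replicate 4.

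The CRE palindrome and the CRE/PAR hybrid with 5hmC in its GTCA core dropped from among the highest Z-scores of CREB1(A297V) to near that of the median 8-mer. At an adjusted p under 0.05 (limma on the Z-scores, Benjamini-Hochberg over all 8-mers), 38 of 65126 8-mers differed between 5hmC and C, which is 0.0583%, and all 38 were lower on 5hmC. Their falls ranged from 3.24 to 25.9 Z units. No 8-mer was called higher, although 2438 were higher and 3339 lower at an unadjusted p under 0.05. All 38 held cytosine on the synthesised strand, 21 held GTCA or TGAC, 7 held TTAC, and 0 held GTAA. Of all 8-mers with at least 8 probes, 10.2% hold no cytosine there, 3.945% hold GTCA or TGAC, and 3.945% hold GTAA or TTAC. Most 8-mers thus hold cytosine, called or not, and with so small a share 0 of 38 with GTAA says little. Another 11 of the 38 held none of these cores. Of those, 5 were rich in cytosine and had identical Z-scores, 4 of them carried by 1 probe and the fifth by 3. Their sequences overlap, so they are not 5 separate results. The count of 38 moved with single arrays. Without 5hmC replicate 1, 278 were called, 92 of them higher, and they included all 38. Without C replicate 2, 12 were called, and without 5hmC replicate 2, 3 or 4, 21, 22 and 25. With the arrays numbered 470 alone, 9 were called, all among the 38.

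The CRE/PAR hybrid TTACGTCA fell most among called 8-mers. Its Z-score was 24.4 and 28.9 on the C arrays, and 0.240, 0.122, 1.29 and 1.49 on the 5hmC arrays. The groups lay far apart, and all 5hmC arrays sat near the median of all 8-mers. The mean fell from 26.7 ± 3.20 (SD, n = 2) to 0.786 ± 0.706 (SD, n = 4), a difference of -25.9 (SE 2.02, adjusted p 1.19e-05 by limma), and its rank fell from 3 to 11256. The CRE palindrome TGACGTCA, the site CREB1 is best known for, was at 22.9 and 23.3 on C and at 0.558, 0.534, -0.337 and 1.41 on 5hmC. Every 5hmC array was again near 0. The difference was -22.6 (SE 1.87, adjusted p 1.56e-05), from rank 6 to rank 16145. Both kept these falls within the arrays numbered 470 (-26.5 and -22.6, adjusted p 0.00528 and 0.00816). In a fit of all 21 arrays neither was called (highest adjusted p over all alternatives 0.221 and 0.383). Mean probe intensity told the same direction, from 4.68 ± 0.281 (SD, n = 2) to 1.09 ± 0.0684 (SD, n = 4) times the array median at TTACGTCA and from 3.77 ± 0.237 to 1.05 ± 0.0343 at TGACGTCA.

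Other sites with a GTCA core were also among the called 8-mers, all of which were lower on 5hmC. TTTCGTCA fell by 7.10 (adjusted p 0.00117), from 5.82 and 8.48 on C to at most 0.746 on 5hmC. TGTCGTCA fell by 6.52 (adjusted p 0.000805) and ended below the median, at -1.56 ± 1.11 (SD, n = 4). TTGCGTCA, which joins a C/EBP core on the template strand to the CRE core, fell by 4.74 (adjusted p 0.0181) and lost its call without C replicate 2 or without 5hmC replicate 3 or 4. ACGTCACA fell by 6.10 (adjusted p 0.0235), which was lost without C replicate 2 and without 5hmC replicate 2, 3 or 4. In the list of 63 measured 8-mers that end in CGTCA, 6 were called lower and 0 higher, and 33 (52.4%) were lower on every 5hmC array than on both C arrays, against 9.36% of all 8-mers. Their median difference was -1.07, against -0.0204 over all 8-mers. Their mean Z-score was 1.63 and 2.36 on C and between -0.251 and -0.131 on 5hmC, where it lay below the mean of all 8-mers on each array. The 64 8-mers ending in TGTCA, which also carry 5hmC in GTCA, had a lower mean on C, 0.356 and 0.647. Of these, 0 were called by limma, 10 (15.6%) were lower on every 5hmC array, and the median difference was -0.367.

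The reverse complements that begin with TGACG carry 5hmC opposite the core. Of these 64, 3 were called lower, 31 were lower on every 5hmC array, and the median difference was -1.30. Among the called ones is TGACGTCA, which also carries 5hmC inside GTCA and is counted in the CGTCA list too. Their mean Z-score went from 2.19 and 2.98 to between 0.358 and 0.602, which stayed above that of the CGTCA list on every 5hmC array. TGACGACA fell by 9.76 (adjusted p 0.00117), from 8.10 and 12.5 to at most 1.13. TATGACGT fell by 7.30 (adjusted p 0.0181), and GCTGACGT by 5.33 (adjusted p 0.0181). Both lost the call without C replicate 2 and without 5hmC replicate 2 or 4, and GCTGACGT also without 5hmC replicate 3. TGACATCA, in which ATCA takes the place of the second core, was at 21.5 and 16.9 on C and at 5.82, 8.25, 2.92 and 4.57 on 5hmC. It fell by 13.8 (SE 2.17, adjusted p 0.0181) yet stayed above 2.9 on every array; the call was lost without C replicate 1 and without 5hmC replicate 3 or 4. TGACGTAA, the reverse complement of the hybrid, was at 35.6 and 39.1 on C and at 12.4, 15.8, 18.0 and 13.8 on 5hmC. Its difference of -22.4 (SE 6.58) was not called (adjusted p 0.364), because the fitted spread grows with the mean Z-score; without that trend the adjusted p was 0.000231. It ranked 2 on C and 8 on 5hmC, while the same double-stranded site with 5hmC inside the GTCA core, TTACGTCA, was near 0. TTACGTCA carries 2 modified cytosines against 1, so their number and position cannot be told apart. It was also lower on C, with a mean of 26.7 against 37.4, and the change between the strands was not called (limma, adjusted p 0.66).

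The PAR palindrome TTACGTAA had the highest mean Z-score on 5hmC, as on C. Its Z-score was 62.8 and 47.5 on C and 15.7, 21.9, 24.7 and 24.3 on 5hmC. It was the highest 8-mer on 5hmC replicate 1 alone, since on replicates 2, 3 and 4 another reached 25.4, 25.6 and 31.1. The groups did not overlap, but the difference of -33.4 (SE 8.28) was not called (adjusted p 0.267). It was called in 5 of 19 alternatives, among them the fit without a trend of spread on mean (adjusted p 0.000248). Probe intensity went from 7.00 ± 0.232 (SD, n = 2) to 2.51 ± 0.316 (SD, n = 4) times the array median. TGTCGTAA, with 1 GTAA core intact, was likewise at 22.4 and 24.2 on C and between 9.16 and 12.3 on 5hmC (difference -12.8, adjusted p 0.386), and was called only on the asinh scale and without the trend. Of 63 measured 8-mers ending in CGTAA, 0 were called by limma, 15 (23.8%) were lower on every 5hmC array, and the median difference was -0.578. Over those, the mean Z-score was 3.76 and 3.93 on C and between 1.66 and 2.26 on 5hmC. On every 5hmC array this lay above the mean of all 8-mers, which was at most 0.156.

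**Figure D2:**
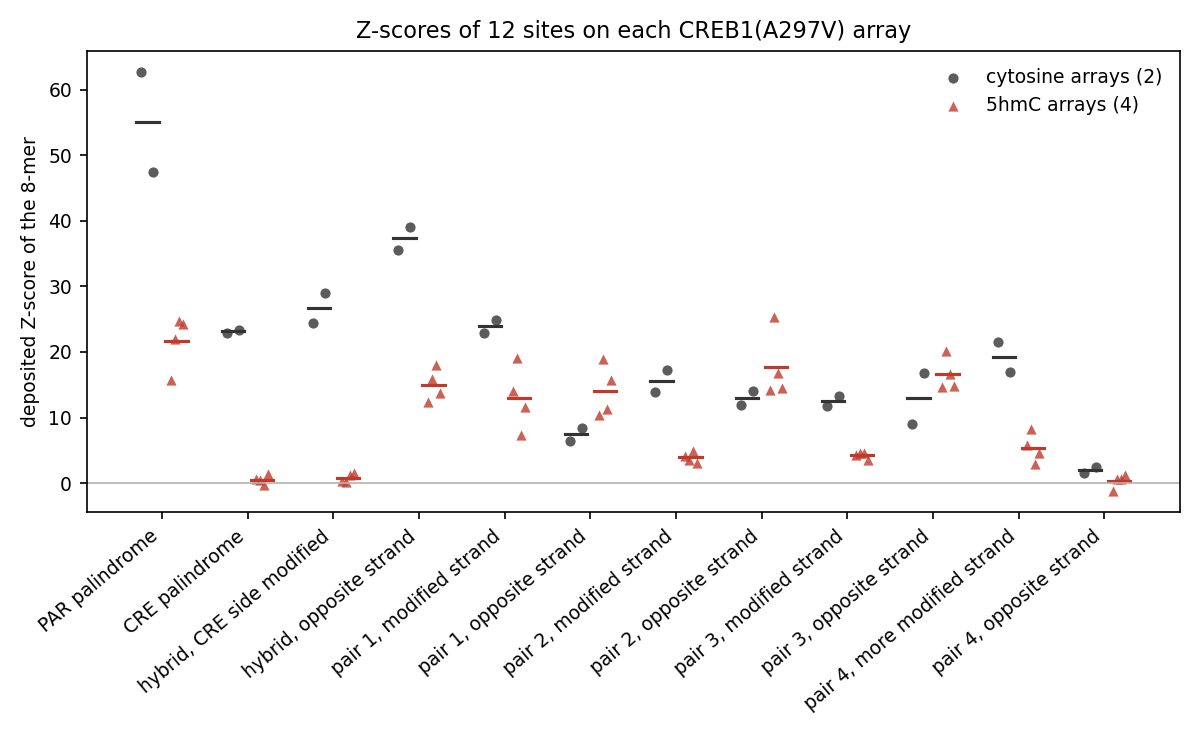
Deposited Z-score (vertical axis, no unit) of 12 8-mers on each array, with black circles for the 2 C arrays, red triangles for the 4 5hmC arrays and a bar at each group mean. In order they are TTACGTAA, TGACGTCA, TTACGTCA, TGACGTAA and then the pairs TTACATAA with TTATGTAA, TTACCTAA with TTAGGTAA, TTACACAT with ATGTGTAA and TGACATCA with TGATGTCA; the red triangles of TGACGTCA and TTACGTCA lie at 1.49 or below.

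Sites that begin with TTAC, and so carry 5hmC opposite the guanine of a GTAA core, gave the next set of called falls. Most such sites were not called. Of 78 8-mers with TTAC, at least 8 probes and a mean of 5 or more on C, 7 were called. Lower on every 5hmC array were 42 of them, and the choice by high values on C favours falls. TTACTTAA went from a mean of 5.04 to 4.33 and its groups overlapped (adjusted p 0.904 by limma). TTACATAA and TTACAACA were not called either (adjusted p 0.516 and 0.272). TTACGACA went from 14.3 and 23.2 to 2.01, 0.662, 0.169 and 1.23, a fall of 17.8 (SE 1.85, adjusted p 0.0003). Of the called falls, only those of TTACGTCA and TGACGTCA were larger, and the reverse complement TGTCGTAA was at 10.5 ± 1.38 (SD, n = 4) on 5hmC. TTACCTAA fell by 11.6 (SE 1.57, adjusted p 0.00468). The differences were -8.54 at TTACACAC (adjusted p 0.000476), -6.55 at TTACCTCA (adjusted p 0.00197) and -8.26 at TTACACAT (adjusted p 0.0408). The call at TTACACAC held under every alternative; that at TTACACAT was lost without any 1 of the arrays other than 5hmC replicate 1. TTACCTAA and TTACCTCA were not called without C replicate 2. TCTTACGT, in which TTAC is followed by GT, fell by 5.26 (adjusted p 0.0214; not called without C replicate 2 or 5hmC replicate 2 or 3). Of the 64 8-mers beginning with TTACG, 2 were called lower and 24 (37.5%) were lower on every 5hmC array, with a median difference of -0.814. The called ones are TTACGACA and the hybrid TTACGTCA, which also carries 5hmC inside GTCA and is counted in the CGTCA list too. Of the 64 beginning with TTACA, 2 were called lower and the median difference was -0.588. TGTCGACA, a palindrome with neither a CRE nor a PAR core, went from 9.62 and 12.7 to at most 1.29 (adjusted p 0.0003).

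Sites with a GTAA core and no cytosine on the synthesised strand had no call in either direction among those named, and of the 35 with a mean of 5 or more on C and at least 8 probes, 13 had differences below 0. TTAGGTAA was at 11.9 and 14.1 on C and at 14.2, 25.4, 16.9 and 14.5 on 5hmC, higher on every 5hmC array by a margin that was small for replicate 1. Its difference of 4.72 (SE 4.03) was not called (adjusted p 0.765), and its rank went from 14 to 3. TTATGTAA was at 6.40 and 8.45 on C and at 10.4, 18.9, 11.4 and 15.8 on 5hmC, again with no overlap, and its difference of 6.67 (SE 2.82) was not called either (adjusted p 0.52). ATGTGTAA was at 9.06 and 16.8 on C and between 14.6 and 20.2 on 5hmC, and the groups overlapped. The 64 8-mers ending in TGTAA had 0 calls in limma, 10 (15.6%) higher on every 5hmC array against 8.24% of all 8-mers, 0 lower on every array, and a median difference of 0.637, which turned to -0.325 in log2 probe intensity after background correction. TTAGGTAA and TTATGTAA turned on that scale too, to -0.509 and -0.378. In plain intensity, TTAGGTAA stood at 2.43 ± 0.130 (SD, n = 2) times the array median on C and 2.16 ± 0.414 (SD, n = 4) on 5hmC, and TTATGTAA at 1.89 ± 0.0609 and 1.87 ± 0.254. On that scale the mean of neither site was higher on 5hmC.

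Each double-stranded site was also compared with itself on the opposite strand. For each array the Z-score of an 8-mer minus that of its reverse complement was compared between 5hmC and C over 32230 pairs. This asymmetry changed in 14 pairs (limma, adjusted p under 0.05), 0.0434% of those tested, always to the disadvantage of the member named first, which by construction has at least as many cytosines on the synthesised strand. In the opposite direction 0 were called, with 1932 at an unadjusted p under 0.05 against 1188 in the called direction. In 13 of the 14 the first member had strictly more cytosines. In 9 of the 14 both members had at least 8 probes, 8 of those 9 first members held TTAC, and 6 of the 9 second members held no cytosine. The other 5 pairs were those of the cytosine-rich 8-mers named above, whose identical Z-scores make them no separate results. Without 5hmC replicate 1, 272 pairs were called, 113 in the same direction, including all 14. Without C replicate 2, 4 were called, and without 5hmC replicate 3, 9. On the asinh scale, which compresses high Z-scores, 0 pairs were called by limma (3366 at an unadjusted p under 0.05).

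TTACATAA and TTATGTAA showed the largest change. On C, the first exceeded the second by 16.5 and 16.4, so the strands were unequal before any modification. On 5hmC the difference was 3.62, 0.238, -4.05 and -4.12. It fell by 17.5 (SE 1.53, adjusted p 4.39e-05 in the limma fit without a trend). The members' means went from 23.9 to 13.0 and from 7.43 to 14.1, and neither was called by itself (adjusted p 0.516 and 0.52). This pair was not called in the fit of all 21 arrays or on the asinh scale. TTACCTAA exceeded TTAGGTAA by 1.88 and 3.08 on C and lay below it on all 4 5hmC arrays, with differences of -21.9, -12.0 and -11.4 on replicates 2, 3 and 4. This was a change of -16.3 (SE 2.47, adjusted p 0.018) that was not called without either C array. TTACACAT against ATGTGTAA changed by -11.9 (SE 1.58, adjusted p 0.00542; not called without C replicate 1), and TTACAACA against TGTTGTAA by -7.59 (SE 1.13, adjusted p 0.018; not called without either C array or without 5hmC replicate 2). TGACATCA against TGATGTCA, with 2 modified cytosines against 1, changed by -12.1 (SE 1.45, adjusted p 0.00215 by limma). That pair was not called with a mean-variance trend, with Z-scores recomputed from probe intensity, on the log2 intensity scale or on the asinh scale. With the trend the pairs of TTACCTAA and TTACACAT lost their calls too. The hybrid TTACGTCA was below TGACGTAA by 10.7 ± 0.680 (SD, n = 2) on C and by 14.2 ± 2.35 (SD, n = 4) on 5hmC, and that change of -3.54 (SE 2.43) was not called (adjusted p 0.66). The members' own differences were -25.9 and -22.4, from different starting values. On the log2 intensity scale, where 2756 of 32230 pairs were called by limma, its asymmetry changed by -1.70 (adjusted p 0.017). This pair was called in 2 of 19 alternatives.

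**Figure D3:**
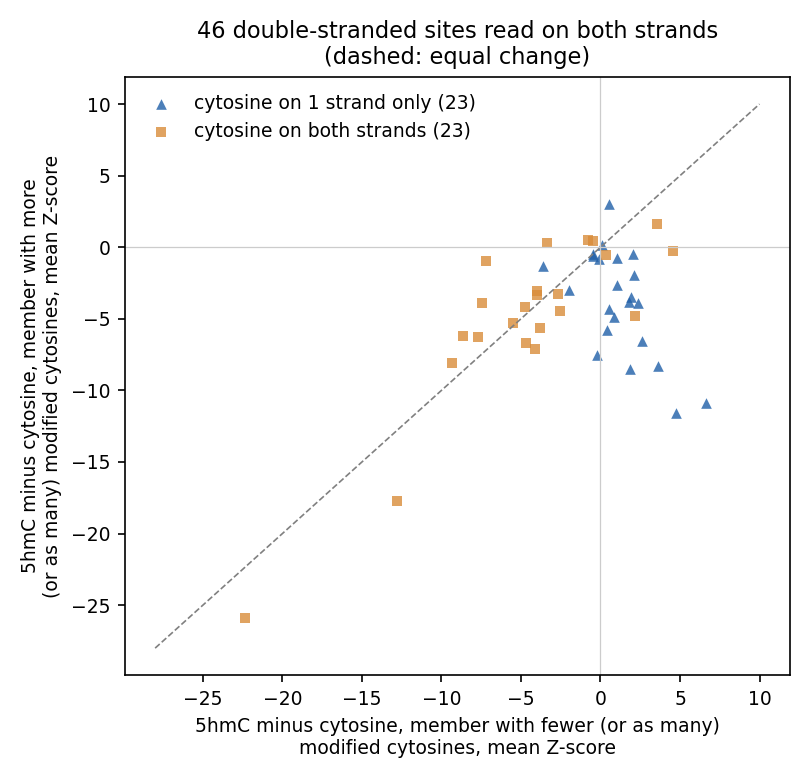
Change in mean Z-score from C to 5hmC for 46 double-stranded sites with at least 8 probes whose 8-mers both had a mean Z-score of 5 or more on C; horizontal axis, the member with fewer (or as many) cytosines on the synthesised strand, vertical axis, the member with more. Of the 23 sites with cytosine on 1 strand only (blue triangles), 19 lie below the dashed line of equal change.

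In 46 pairs both members had a mean Z-score of 5 or more on C and at least 8 probes. In 23 of these, cytosine was on 1 strand only. There the member with cytosine had a median change of -3.45 and the member without it one of 1.02, and the first fell more in 19 of 23; 5 of the 23 changes were called, against 0.0434% of all pairs. In the 13 pairs with unequal numbers on both strands the medians were -5.32 and -4.76, and in the 10 with equal numbers -3.60 and -3.20. Since all were chosen by high values on C, falls are favoured in every class, and the classes are compared as a description.

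Single 8-mers were counted in the same way. Of those with at least 8 probes, 194 had a mean Z-score of 5 or more on C. The 44 with no cytosine on the synthesised strand had a median difference of 0.40, with 20 below 0 and 0 called by limma (2 lower and 1 higher at an unadjusted p under 0.05). With 1 cytosine, 93 8-mers had a median difference of -2.66 and 3 calls, and with 2, 49 had -3.28, 12 calls and 48 below 0. The 8 with 3 or more had -6.33 and 6 calls. The choice by high values on C favours falls here too, so these counts describe the classes and support nothing by themselves. When the 8-mers were instead chosen by a mean of 5 or more on the 5mC arrays, which are no side of this comparison, the medians were 0.99 for no cytosine (42 8-mers), -0.70 for 1 (108), -1.06 for 2 (85) and -0.40 for 3 or more (17). By that choice the class without cytosine alone had a positive median, and the falls did not increase steadily with the number of cytosines. The 5mC arrays correlated with the C arrays at 0.633 to 0.744 and with the 5hmC arrays at 0.386 to 0.659. Choosing on 5mC may therefore still favour falls. Of GTAA 8-mers so chosen, the 40 without cytosine had a median difference of 1.05 and the 124 with it one of -0.54, with 0 called by limma in either. Over all 8-mers, with no choice by Z-score, the medians ran the other way. They were -0.130 for no cytosine, -0.113 for 1, -0.0408 for 2, 0.0670 for 3, 0.168 for 4 and 0.183 for 5. Lower on every 5hmC array were 10.35% of those without cytosine and 5.66% of those with 4.

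**Figure D4:**
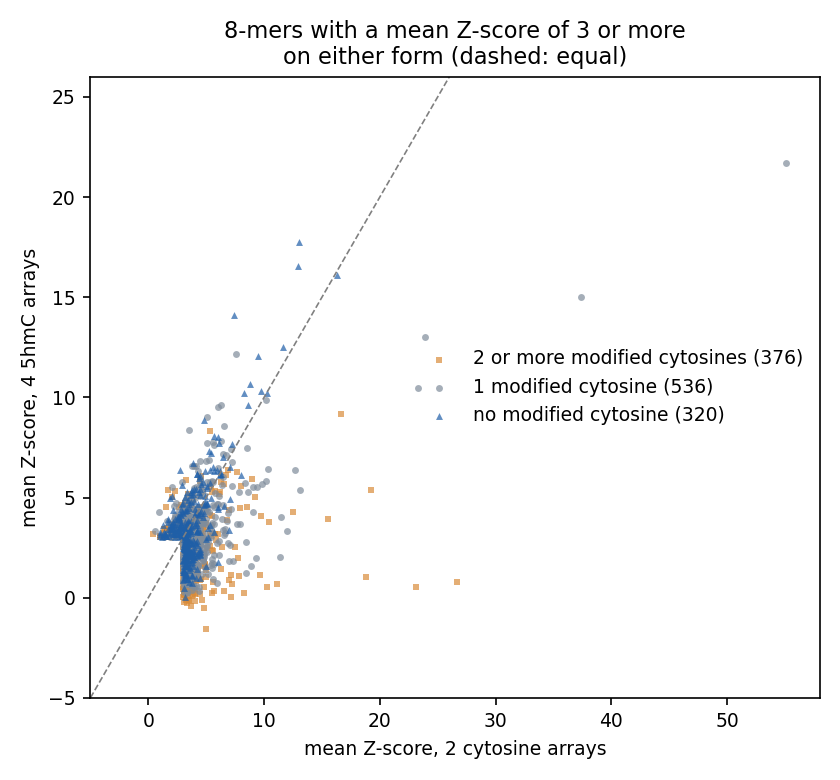
Mean Z-score on the 4 5hmC arrays (vertical axis) against that on the 2 C arrays (horizontal axis) of the 1232 8-mers with at least 8 probes and a mean of 3 or more on either form, by number of cytosines on the synthesised strand (blue triangles, 0; grey circles, 1; orange squares, 2 or more); the axes have different scales and the dashed line marks equal means. At a mean of 10 or more on 5hmC there are 10 8-mers with no cytosine, 5 with 1 and 0 with 2 or more, against 5, 12 and 10 at that level on C.

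The best-ranked 8-mers changed in composition. Among the 100 8-mers with the highest mean and at least 8 probes, those without cytosine on the synthesised strand numbered 18 on C and 41 on 5hmC, against 10.2% of all such 8-mers. Those with CG numbered 48 on C and 14 on 5hmC. GTCA was in 6 on C and 0 on 5hmC, TGAC in 13 and 2, GTAA in 36 and 63, and TTAC in 46 and 34. Of all such 8-mers, 3.945% hold GTCA or TGAC and 3.945% GTAA or TTAC. On 5mC these cores moved the same way from C, with GTCA in 0, TGAC in 4, GTAA in 77 and TTAC in 20. There, however, 12 held no cytosine and 64 held CG. Of the 100 on 5hmC, 44 were shared with C, as were 45 of those on 5mC. After leaving out 8-mers that share 7 bases, the first 5 on C were TTACGTAA, TGACGTAA, TTACATAA, TGTCGTAA and TGACGTCA. On 5hmC they were TTACGTAA, TTAGGTAA, ATGTGTAA, TGACGTAA and TTATGTAA, of which 3 hold no cytosine on the synthesised strand.

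No C/EBP core site of the fixed set that lacked GTCA was called. TTACGCAA was at 7.81 and 10.6 on C and between 3.74 and 6.06 on 5hmC, and TGACGCAA at 5.93 and 7.97 and between 3.30 and 5.50; neither was called (adjusted p 0.538 and 0.615). TTGCGCAA, with C/EBP cores on both strands, was at 1.47 and 1.93 on C and between 1.41 and 6.73 on 5hmC. TTGCGTAA was at 8.76 and 9.27 on C and between 2.02 and 9.29 on 5hmC, with an overlap through replicate 4. The 64 8-mers ending in CGCAA had 0 calls in limma and a median difference of -0.251, and 13 (20.3%) were lower on every 5hmC array. In the lists with other known cores, 0 of 16 AP-1, 0 of 48 E-box and 0 of 95 ETS 8-mers were called by limma, with median differences of -0.828, -0.479 and 0.0472. Those lower on every 5hmC array were 7 of 16 for AP-1 (43.8%), 9 of 48 for the E-box (18.8%) and 7 of 95 for ETS (7.37%), against 9.36% of all 8-mers.

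The effect of 5hmC differed from that in wild-type CREB1 at 499 8-mers, 0.766% of those tested, 151 (0.232%) toward higher and 348 (0.534%) toward lower values in CREB1(A297V) (limma, interaction contrast over all 21 arrays). Z-scores of CREB1 spanned a wider range, so a difference can be one of scale. Both CREB1 5hmC arrays carry another file number than both CREB1 C arrays, so in CREB1 the number and the form of cytosine cannot be told apart. The largest among the fixed sites was at TGATGCAA, which joins an ATF-type and a C/EBP core. In CREB1 it went from 2.90 ± 1.71 (SD, n = 2) to 156 ± 20.6 (SD, n = 2), and in CREB1(A297V) it was at 2.09 and 2.66 on C and at 3.30, 2.27, 0.281 and 4.21 on 5hmC. The interaction was -153 (SE 13.2, adjusted p 1.58e-06) and was called in all 14 alternatives. At the CRE palindrome, CREB1 went from 195 ± 24.9 to 28.8 ± 13.7 (both n = 2) and so kept a Z-score above every 5hmC array of the mutant. The interaction there was 143.7 (SE 18.4, adjusted p 0.000113) on the Z scale. It turned to -1.40 on the asinh scale, and it was called neither there nor after quantile normalization. TTACGACA, TTACCTAA and TTACACAC, which were at 7.31, 3.06 and 2.19 in CREB1 on C, had the more negative differences in the mutant, with interactions of -11.8, -9.32 and -8.87 (adjusted p 0.00907, 0.00907 and 3.5e-05). None of these 3 was called on the asinh scale. Without CREB1 C replicate 1 or CREB1 5hmC replicate 2 TTACGACA and TTACCTAA lost the call, and TTACCTAA also without CREB1 5hmC replicate 1 or CREB1(A297V) C replicate 2. The count of 499 ranged from 262 to 691 when 1 array was left out.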

How the data were processed

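Arrays of 40330 spots were made double-stranded with C, 5mC or 5hmC, per the labels' protocols. The deposited table holds a Z-score per 8-mer and array, a score whose derivation is not given in the sources used here. The deposited signal files hold, per the file headers, median spot and background intensity. Names in the table were the printed sequence read backwards (r with median probe intensity 0.603 to 0.884 on the 8 CREB1(A297V) arrays, at most 0.429 for the other readings), so 8-mers are given as complements, 5′ to 3′ on the synthesised strand.

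Z-scores of those 8 arrays were fitted in limma 3.58.1 (R 4.3.3) with a mean-variance trend, 5 residual degrees of freedom, two-sided tests and Benjamini-Hochberg adjustment over 65126 8-mers carried by a probe; 409 without one were left out. Strand asymmetry was fitted without a trend. It was first run with one, which the fixed design did not name and which gave unusable standard errors at extreme pairs. The interaction used all 21 arrays. Alternatives were other scales, filters, models and array subsets; one scale was the log2 of deposited intensities after normexp (offset 50).

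Named 8-mers were 11 combinations of CRE, C/EBP and PAR cores, 8-mers TTA-NN-TAA or TGA-NN-TCA with a mean of 5 or more, up to 10 of the largest called falls, the 5 highest per form and the 5 largest called asymmetries, each with at least 8 probes and without overlaps of 7 bases, plus reverse complements. Members, lists and names were chosen with earlier results of these data known. The fits were tested on simulated data, drawn independently for each 8-mer and with no array set apart. That test therefore does not cover 8-mers that share probes or an array that deviates. The number of arrays limits the precision.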

Additional observations from a re-analysis of the deposited data

Results flagged for a closer look

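TTGCGTCA was at 0.687 on 5hmC replicate 2, apart from the other 5hmC arrays at -0.391 to -0.337. TTGCGTAA was at 9.29 on 5hmC replicate 4, against 2.02 to 3.20 on the other 5hmC arrays. Of 49 sets of 4 values examined this way, these 2 had an array far from the rest, and chance gives about 1 in 20.

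The effect of 5hmC differed between CREB1(A297V) and CREB1 (interaction, limma, adjusted p under 0.05) at 11 named 8-mers. It was -153 at TGATGCAA and 143.7 at TGACGTCA. Sites with ACGTCA, which had higher Z-scores on C in CREB1, gave 80.0 at ACGTCACA, 21.8 at ACGTCATA and 12.7 at ACGTCAGC. Sites with TTAC gave -9.32 at TTACCTAA, -11.8 at TTACGACA, -8.87 at TTACACAC, -5.15 at TTACCTCA and -7.62 at TTACACAT, and TGTCGACA gave -8.99. On the asinh scale, 1 of these 11 was called, at TGATGCAA.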

How the results depend on the processing

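Of 38 8-mers called, the 21-array fit gave 166 (17 shared), the arrays numbered 470 gave 9, scaling by each array's highest Z-scores 20, recomputed Z-scores 37 (19 shared), the asinh scale 38 (26 shared), log2 intensity after normexp 2752 (37 shared), no mean-variance trend 72, array weights 296, and adding the 409 8-mers that are at 0 on every array 3. Leaving out 1 array gave 12 to 278. The 14 pairs called became 156 in the 21-array fit, 24 after quantile normalization, 6 after scaling and 3 with recomputed Z-scores. They became 2756 after normexp, 9 with at least 8 probes, 252 with array weights, 8 with a trend and 0 on the asinh scale (3366 at an unadjusted p under 0.05). Leaving out 1 array gave 4 to 272 pairs. The fit with a trend was run first, and the fit without it, which gave the 14, was taken up after that output was seen. The 499 interactions became 109 on the asinh scale and ranged from 262 to 691 with 1 array left out.

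With the replicate block the counts were 31 (24 shared, 3 higher), 49 and 1567, and ACGTCACA, GCTGACGT, TTGCGTCA and TTACACAT were not called. Only 2 replicate numbers are shared by C and 5hmC. Deviations of same-numbered arrays correlated at 0.149 for C and 5hmC, 0.19 for C and 5mC and 0.206 for 5mC and 5hmC, a hint from the data that was not taken as pairing.

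Signs turned after normexp at TTGCGCAA (-0.0475), TGATGCAA (-0.382), TTAAGTAA (-0.605), TTAGGTAA (-0.509), TTATGTAA (-0.378), ATGTGTAA (-0.256), TGTTGTAA (-0.501), GTGTGTAA (-0.649), TGAGGTAA (-0.128) and TTGCATCA minus TGATGCAA (0.154). On the asinh scale they turned at TGATGCAA (-0.121), TGACGACA minus TGTCGTCA (0.861) and the interaction at TGACGTCA (-1.40). TGATGCAA turned with array weights (-0.103), without C replicate 1 and without 5hmC replicate 1 or 4 (-0.425 to 0.886 with 1 array left out). Without C replicate 1, ATGTGTAA turned (-0.246 to 7.52 over arrays left out), as did TTACGCAA minus TTGCGTAA (-0.566 to 1.93), which also turned without 5hmC replicate 2. TTACTTAA turned without 5hmC replicate 3 (-1.17 to 0.20). The cause was not tested; apart from the interaction at TGACGTCA, none of these results was called. On 5hmC replicate 3 the median spot had 76 units of intensity against a local background of 68, which limits what that array can show.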
